A study of Mus musculus with 9 samples.

Results

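The interleukin-6 (IL-6) family was followed through 10 genes: the ligands Il6, Il11, Lif and Clcf1, the receptor chains Il6ra, Il6st, Osmr and Lifr, the transcription factor Stat3 and the feedback inhibitor Socs3. They were taken by name from the gene count table, are 10 of its 54532 genes, and all 10 had enough reads to be tested, among 16526 genes tested. The table covers mRNA sequencing of cultured adipose-derived stem cells (ASCs) of C57BL/6 mice from subcutaneous (SUB, Sub-ASCs), abdominal (AB, Ab-ASCs) and perivascular (PV, PVASCs) fat, with 3 libraries per group and 9 in all. Cells were harvested at passages 3 to 6 without a treatment that differed between groups, and the labels give no age, sex or number of animals, nor whether tissue was pooled. The culture medium contained serum, fibroblast growth factor and recombinant human leukemia inhibitory factor, itself a ligand of this family, so all 3 groups grew with added LIF protein, which mRNA counts do not measure. Nothing states that libraries of a group came from separate cultures or animals, so p-values measure the spread between these libraries, which may be technical.

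Cytokines of the IL-6 family are secreted proteins that signal, with few exceptions, through receptors sharing the chain gp130, encoded by Il6st. IL-6 and IL-11 first bind a receptor of their own (Il6ra, Il11ra1) and then pair gp130 chains, whereas LIF pairs gp130 with the LIF receptor (Lifr) and mouse oncostatin M mainly with its own receptor (Osmr). CLCF1 binds the ciliary neurotrophic factor receptor (Cntfr) before joining gp130 and Lifr. The joined chains bring Janus kinases such as JAK1 together, which leads to phosphorylation of STAT3, and STAT3 raises transcription of Socs3, whose protein binds gp130 and the kinases and stops the signal. In adipose stromal cells these cytokines are known from inflammation and as regulators of fat cell formation, and LIF is known for keeping mouse embryonic stem cells undifferentiated.

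Total counts were 23781019 to 26872579 reads in SUB, 20524173 to 23832828 in AB and 27136829 to 29881036 in PV libraries, so that 3 reads correspond to 0.0917 to 0.161 CPM (reads per 1000000 reads of a TMM-scaled library). Ab-ASC replicate 1 stood apart from the other AB libraries, and the biological coefficient of variation was 12.5% in AB, 5.69% in SUB and 3.85% in PV. The stromal markers were present in all groups but not at like levels: Pdgfra had a mean of 2709 CPM in SUB, 443 in AB and 332 in PV, Ly6a (Sca1) had 2049, 21.8 and 111, and Cd34 had 128, 14.0 and 94.96. Thy1 (CD90) was highest in PV, with 332, 231 and 883 CPM, as was Eng (CD105) with 108, 145 and 328, whereas Col1a1 was highest in AB, with 3402, 5072 and 2561. Summed over the marker list of each cell type, endothelial genes (5, with Pecam1 and Cdh5) were at 167 to 181 CPM in SUB, 61.0 to 63.0 in AB and 713 to 723 in PV. Of these 5 genes, 4 were higher in PV than in SUB and 1 was lower. That gene, Tek, had means of 46.0 CPM in SUB, 10.1 in AB and 14.8 in PV. Mesothelial genes (7) summed to 2.75 to 2.94, 107 to 115 and 37.9 to 39.8 CPM, with Lrrn4 at 0 reads in SUB. Leukocyte genes (8) summed to 240.1 to 244 CPM in SUB, 302 to 395 in AB and 291 to 301 in PV, most of it Lyz2, while Ptprc (CD45) had means of 8.94, 1.41 and 2.81 CPM and Cd3e had 0 reads in AB and PV. Against SUB, 2 of the 7 leukocyte genes tested were higher and 5 lower, in AB and in PV alike. Proliferation genes (6) summed to 51.8 to 58.0 CPM in SUB, 569 to 655 in AB and 580 to 597 in PV. Interferon response genes (10) summed to 2877 to 3001, 123 to 139 and 115 to 117 CPM. In bulk samples, fewer cells of a type and less RNA per cell cannot be told apart, and the part of these differences in the results on the IL-6 family was not tested.

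For 3 of the 4 ligand genes, the 250 bases before a RefSeq start are shown (GRCm38.p6, 5′ to 3′ along the gene's strand), because each holds an exact match to TGANTCA, the site of AP-1 factors, which are known regulators of cytokine genes. Capitals mark the matches to TGANTCA in all 3 windows and, in Il6, to the NF-kB consensus. The windows are chr5:30012864-30013113 on the plus strand for Il6, chr7:4778142-4778391 on the minus strand for the second of the Il11 starts, and chr11:4257318-4257567 on the plus strand for Lif, whose last 11 bases overlap an annotated exon of Lif.
Il6: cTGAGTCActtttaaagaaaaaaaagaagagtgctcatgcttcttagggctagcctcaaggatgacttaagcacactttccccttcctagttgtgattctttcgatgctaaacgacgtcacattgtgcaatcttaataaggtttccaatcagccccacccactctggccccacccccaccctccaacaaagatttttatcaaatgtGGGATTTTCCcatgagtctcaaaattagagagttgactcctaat
Il11: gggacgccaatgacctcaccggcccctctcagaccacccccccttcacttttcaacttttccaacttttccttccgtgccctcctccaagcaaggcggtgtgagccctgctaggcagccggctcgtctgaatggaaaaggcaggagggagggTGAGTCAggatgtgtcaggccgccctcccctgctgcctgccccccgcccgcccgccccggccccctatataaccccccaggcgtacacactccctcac
Lif: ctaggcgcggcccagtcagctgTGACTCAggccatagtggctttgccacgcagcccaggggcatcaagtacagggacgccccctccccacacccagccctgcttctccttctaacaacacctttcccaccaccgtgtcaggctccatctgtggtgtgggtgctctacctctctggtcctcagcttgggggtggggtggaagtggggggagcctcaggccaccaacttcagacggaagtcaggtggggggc

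The matches are TGAGTCA 249 to 243 bases and GGGATTTTCC 44 to 35 bases before the Il6 start, TGAGTCA 98 to 92 bases before the Il11 start and TGACTCA 228 to 222 bases before the Lif start. Promoters of 9 of the 10 members, all but Clcf1, were in the RefSeq table, and both strands were searched. The first Il11 start held no match to any motif searched. The AP-1 letters occur in 6.87% of 27025 promoters of this length, the first start of each gene, and the NF-kB consensus in 3.75%. The members were searched at every listed start, so the Il11 match, at its second start, would not count under that rule. The letters TTCNNNGAA, a STAT site, occur in 7.18% of promoters and, among the members, were found in Socs3 alone, as TTCTTAGAA 154 to 146 bases before its start. The cyclic AMP response element TGACGTCA (1.62% of promoters) was found in no member window, and the windows of Il6ra, Il6st, Osmr, Lifr and Stat3 held none of the 4 motifs. All 250 bases of the Osmr window lie in annotated exons of Osmr, and 77 bases of the Socs3 window in exons of Socs3. The first Lifr window has 13 such bases and the first Il11 window 2. These matches describe the letters of the windows, and no binding was measured.

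All 4 ligand genes were highest in Ab-ASCs, intermediate in PVASCs and lowest in Sub-ASCs, whereas the 4 receptor chains, Stat3 and Socs3 were all highest in Sub-ASCs. Any difference among the 3 groups was found for 10 of 10 members and for 84.6% of all tested genes (edgeR quasi-likelihood test, adjusted p under 0.05). Between Ab-ASCs and Sub-ASCs 10 of 10 members changed, against 75.3% of tested genes, with 4 higher (37% of tested genes) and 6 lower in Ab-ASCs (38.3%). Between PVASCs and Sub-ASCs 10 of 10 changed as well, against 70.4%, with the same 4 higher (34.7%) and 6 lower (35.7%). Between PVASCs and Ab-ASCs 7 of 10 changed, against 56.9%, with 2 higher (24.7%) and 5 lower in PVASCs (32.1%). All 3 pairs of groups passed for 7 members and for 35.5% of tested genes. The libraries of the groups did not overlap for 10 members between AB and SUB (76.5% of tested genes), 10 between PV and SUB (77.3%) and 9 between PV and AB (63.9%). With most genes of the table called, these counts are read against a high background, and the sizes of the differences are given next. A log2 fold change of 1 or more in size was passed by 9 members between AB and SUB (37.8% of tested genes), 8 between PV and SUB (32.2%) and 2 between PV and AB (15.4%). The median absolute log2 fold change of the members was 2.48 between Ab-ASCs and Sub-ASCs against 0.75 for all tested genes, 1.67 against 0.59 between PVASCs and Sub-ASCs, and 0.32 against 0.38 between PVASCs and Ab-ASCs. Both comparisons with Sub-ASCs use the same SUB libraries, so they are not independent of each other.

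**Figure D1:**
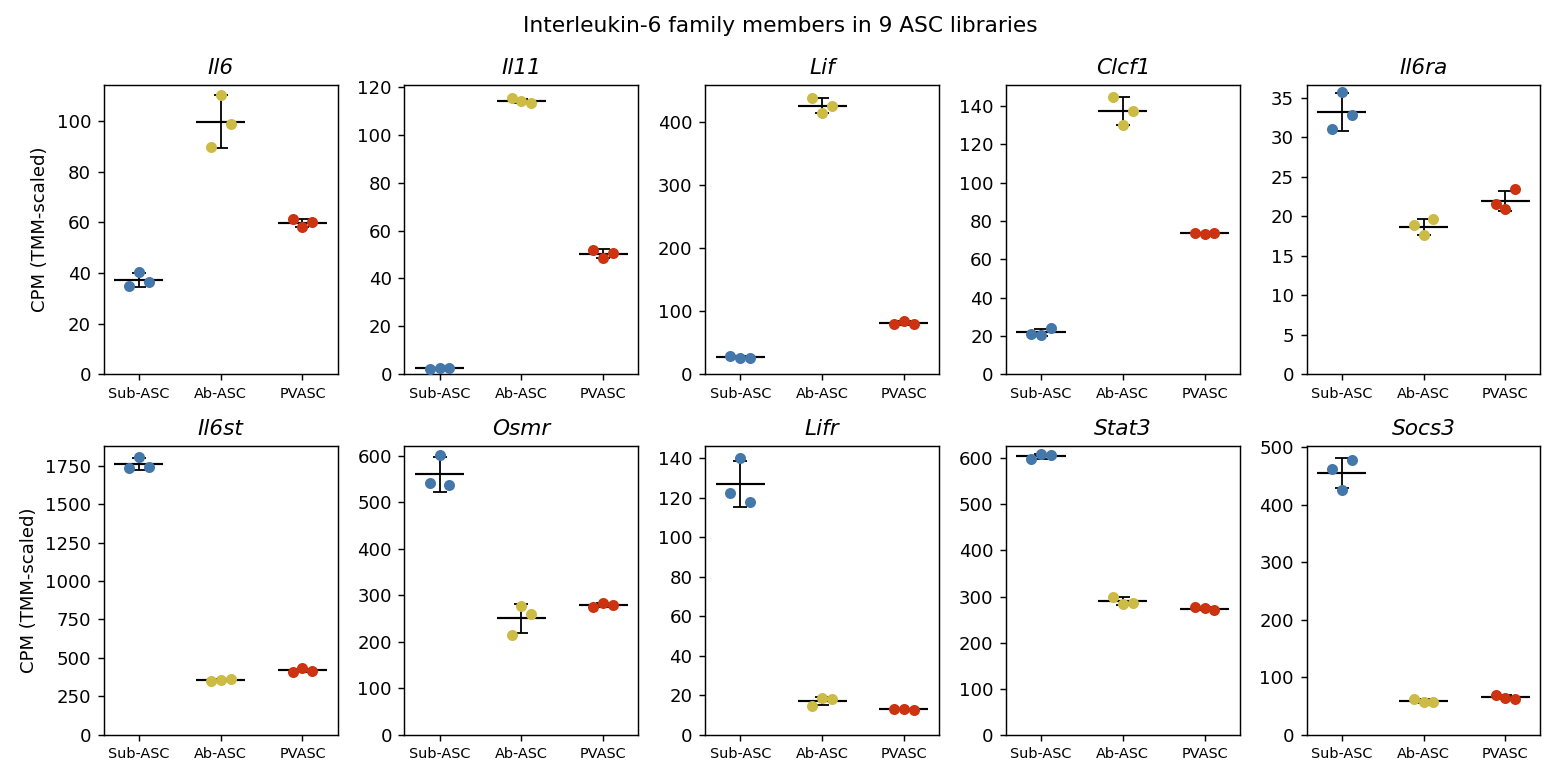
Each panel shows 1 of the 10 members, with CPM on the vertical axis and the Sub-ASC (SUB), Ab-ASC (AB) and PVASC (PV) groups on the horizontal axis; points are libraries, and bars give the mean ± SD of 3 libraries. Il6, Il11, Lif and Clcf1 are highest in the AB group and lowest in the SUB group, while the other 6 panels have the SUB group on top.

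Il11 was the ligand with the widest range. This gene, on the minus strand of chromosome 7 (ENSMUSG00000004371, 4772373 to 4782857 on GRCm38, the build of all positions given here), encodes a cytokine of stromal cells. It had 2.06, 2.63 and 2.44 CPM in the SUB libraries (48, 67 and 64 reads), 115, 114 and 113 CPM in the AB libraries and 52.1, 48.4 and 50.4 CPM in the PV libraries. The 3 groups did not overlap, and the AB libraries differed from each other by less than the PV libraries. Il11 was 47.8-fold higher in Ab-ASCs than in Sub-ASCs (95% interval 42.1 to 54.3, edgeR adjusted p = 5e-14), which is a larger change than in 97.3% of tested genes. In PVASCs it was 21.0-fold higher than in Sub-ASCs (18.5 to 23.9, edgeR adjusted p = 2.62e-13) and 2.27-fold lower than in Ab-ASCs (2.07 to 2.49, edgeR adjusted p = 1.26e-08).

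Lif, on the plus strand of chromosome 11 (ENSMUSG00000034394, 4257557 to 4272514), set Ab-ASCs apart from both other groups. The SUB libraries had 28.2, 26.1 and 25.6 CPM, the AB libraries 438, 414 and 425 CPM, and the PV libraries 79.2, 83.9 and 79.2 CPM. Every AB library was thus far above every PV library, and every PV library above every SUB library. Against Sub-ASCs, Lif was 16.0-fold higher in Ab-ASCs (14.6 to 17.6, edgeR adjusted p = 5.18e-14) and 3.04-fold higher in PVASCs (2.78 to 3.31, edgeR adjusted p = 7.65e-11). Its 5.27-fold difference between Ab-ASCs and PVASCs (4.84 to 5.74, edgeR adjusted p = 1.57e-11) was the largest of the 10 members in that comparison, exceeding that of 95.7% of tested genes. Per length, Lif was also the most abundant member ligand in Ab-ASCs, with a mean of 97.9 FPKM (CPM per kilobase of listed gene length).

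Clcf1, on the plus strand of chromosome 19 (ENSMUSG00000040663, 4214238 to 4223490), followed the same order. It had 21.1, 20.6 and 24.0 CPM in SUB, 145, 130 and 137 CPM in AB, and 73.5, 73.2 and 73.6 CPM in PV libraries. The AB libraries were 6.27-fold above the SUB libraries (5.63 to 6.97, edgeR adjusted p = 4.85e-12), and the PV libraries were 3.35-fold above them (3.02 to 3.72, edgeR adjusted p = 2.14e-10). PVASCs were 1.87-fold below Ab-ASCs (1.69 to 2.06, edgeR adjusted p = 2.54e-07). A miRNA gene on the opposite strand, Gm26115, overlaps Clcf1 by 87 bases and had 6 to 30 reads, and whether counting used strand is not given in the sources used here.

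Il6, on the plus strand of chromosome 5 (ENSMUSG00000025746, 30013114 to 30019981), differed least among the ligands. Its levels were 35.0, 40.3 and 36.3 CPM in SUB, 90.0, 111 and 99.1 CPM in AB, and 61.2, 58.1 and 60.1 CPM in PV libraries. No group overlapped another, but the folds were small beside those of Il11 and Lif: 2.68 between Ab-ASCs and Sub-ASCs (2.37 to 3.03, edgeR adjusted p = 6.72e-09) and 1.61 between PVASCs and Sub-ASCs (1.42 to 1.81, edgeR adjusted p = 8.02e-06). In PVASCs, Il6 was 1.67-fold lower than in Ab-ASCs (1.48 to 1.88, edgeR adjusted p = 8.39e-06). The order AB over PV over SUB with all 3 pairs past the threshold, shared by the 4 ligands, was met by 13.2% of all tested genes. On the FPKM scale the ligands ranked differently in each group: Il6 led in Sub-ASCs (15.3, against 6.12 for Lif, 5.90 for Clcf1 and 1.18 for Il11), Lif in Ab-ASCs (97.9, against 56.8 for Il11, 41.1 for Il6 and 37.0 for Clcf1), and Il11 in PVASCs (25.0, against 24.6 for Il6, 19.8 for Clcf1 and 18.6 for Lif). In PVASCs the mean FPKM of Il11 and Il6 thus lay close together, as did those of Clcf1 and Lif. These ranks depend on the listed gene lengths, which need not be the lengths of the transcripts made in these cells.

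Among other ligand genes of the family, Osm, the oncostatin M gene, which is known mainly from leukocytes, was near the limit of detection, with 17, 28 and 20 reads in SUB, 9, 11 and 20 in AB, and 5, 8 and 2 in PV. Its log2 fold change was -2.40 ± 0.45 (SE, 3 libraries per group) in PVASCs against Sub-ASCs (edgeR adjusted p = 0.00043) and -0.46 in Ab-ASCs (95% interval -1.30 to 0.37, edgeR adjusted p = 0.286). Ctf1, encoding cardiotrophin 1, had 24 to 29 reads in SUB, 20 to 32 in AB and 57 to 74 in PV, with a log2 fold change of 1.00 ± 0.23 (SE) in PVASCs against Sub-ASCs (edgeR adjusted p = 0.00217) and 0.33 in Ab-ASCs (95% interval -0.24 to 0.90, edgeR adjusted p = 0.264). Cntf, Ctf2, Il27 and Ebi3 had at most 15 reads in any library and Il31 had 0 in all 9, so none of these 5 was tested.

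The receptor chains ran the other way. Il6st, on the plus strand of chromosome 13 (ENSMUSG00000021756, 112464070 to 112510086), encodes gp130, the chain shared by IL-6, IL-11, LIF and CLCF1 signals. It had 1733, 1807 and 1739 CPM in SUB, 350, 356 and 363 CPM in AB, and 412, 432 and 412 CPM in PV libraries. Sub-ASCs stood far above both other groups, between which the gap was small without overlap. Il6st was 4.94-fold lower in Ab-ASCs (4.61 to 5.29, edgeR adjusted p = 3.6e-13) and 4.20-fold lower in PVASCs (3.92 to 4.50, edgeR adjusted p = 8.49e-13) than in Sub-ASCs, and 1.18-fold higher in PVASCs than in Ab-ASCs (1.10 to 1.26, edgeR adjusted p = 0.000756). With a mean of 158 FPKM in Sub-ASCs, 32.1 in Ab-ASCs and 37.7 in PVASCs, it was the most abundant receptor chain of the 4 in each group.

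Lifr, on the plus strand of chromosome 15 (ENSMUSG00000054263, 7090614 to 7197489), had the largest difference among the receptor chains. The SUB libraries had 122, 140 and 118 CPM, the AB libraries 14.8, 18.5 and 17.9 CPM, and the PV libraries 13.0, 13.3 and 12.6 CPM. It was 7.40-fold lower in Ab-ASCs (6.43 to 8.52, edgeR adjusted p = 2.83e-11) and 9.78-fold lower in PVASCs (8.49 to 11.3, edgeR adjusted p = 8.97e-12) than in Sub-ASCs. Unlike Il6st, it was lower in PVASCs than in Ab-ASCs as well, by 1.32-fold (1.14 to 1.53, edgeR adjusted p = 0.00381).

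Osmr lies on the minus strand of chromosome 15 (ENSMUSG00000022146, 6813577 to 6874969) and Il6ra on the minus strand of chromosome 3 (ENSMUSG00000027947, 89864059 to 89913196), and both changed less. For Osmr, the SUB libraries had 541, 603 and 537 CPM, the AB libraries 215, 277 and 260 CPM, and the PV libraries 275, 285 and 278 CPM. The lowest SUB library was above every other library, while the AB and PV libraries overlapped. Osmr was 2.24-fold lower in Ab-ASCs (1.97 to 2.54, edgeR adjusted p = 6.35e-08) and 2.01-fold lower in PVASCs (1.77 to 2.27, edgeR adjusted p = 2.61e-07), and its log2 difference of PVASCs from Ab-ASCs was 0.16 (95% interval -0.02 to 0.34, edgeR adjusted p = 0.125). Il6ra, which gives a cell its response to IL-6 itself, had 31.1, 35.7 and 32.8 CPM in SUB, 18.8, 17.6 and 19.6 CPM in AB, and 21.5, 20.9 and 23.4 CPM in PV libraries. Against Sub-ASCs its log2 fold change was -0.83 ± 0.08 (SE, edgeR adjusted p = 9.77e-07) in Ab-ASCs and -0.60 ± 0.08 (SE, edgeR adjusted p = 1.62e-05) in PVASCs, 1.78-fold and 1.51-fold lower. These were the smallest differences from Sub-ASCs among the 4 receptor chains. The 1.17-fold higher level in PVASCs than in Ab-ASCs (1.04 to 1.32, edgeR adjusted p = 0.0261) was lost without AB replicate 2 (edgeR adjusted p = 0.0919), without PV replicate 1 (0.0526) and without PV replicate 3 (0.113).

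Osmr and Lifr encode alternative partners of gp130. The FPKM ratio of Osmr to Lifr had a median of 3.94 in SUB (3.83 to 4.05), 12.9 in AB (12.9 to 13.3) and 19.0 in PV libraries (18.9 to 19.7). The ratio of Osmr to Il6st was 0.286 in SUB (0.283 to 0.306), 0.656 in AB (0.563 to 0.712) and 0.612 in PV (0.603 to 0.619), with AB and PV overlapping. Relative to Lifr, Osmr mRNA was thus lowest in every SUB library and highest in every PV library. In all 3 groups the ligand-specific Il6ra was far below the shared chain, at a median of 0.0242, 0.0692 and 0.0671 of the FPKM of Il6st. Having the highest mean in Sub-ASCs with both other groups significantly lower was shared by 6 of 10 members and by 28.7% of all tested genes.

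**Figure D2:**
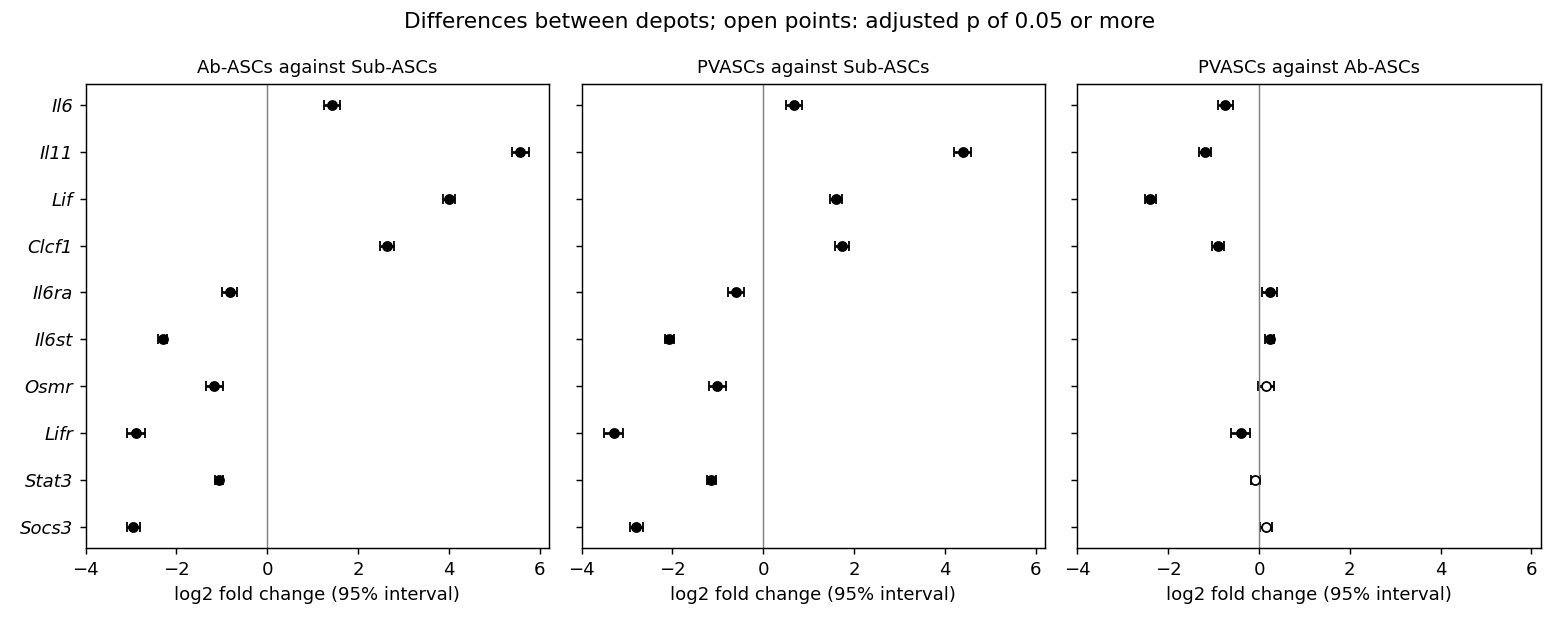
Log2 fold changes of the 10 members are plotted with their 95% intervals in 3 panels (AB over SUB, PV over SUB, PV over AB), with open points where the edgeR adjusted p was not under 0.05. The 4 ligands lie right of 0 and the other 6 members left of 0 in both comparisons with Sub-ASCs, and Osmr, Stat3 and Socs3 are the open points between PVASCs and Ab-ASCs.

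Of the 5 further receptor genes of the family, Il11ra1 and Cntfr bind the ligands Il11 and Clcf1 described above. Il11ra1 had 270, 253 and 279 CPM in SUB, 68.7, 53.7 and 55.5 CPM in AB, and 40.9, 41.5 and 40.6 CPM in PV libraries. It was 4.51-fold lower in Ab-ASCs (3.96 to 5.13, edgeR adjusted p = 1.83e-10) and 6.51-fold lower in PVASCs (5.71 to 7.43, edgeR adjusted p = 2.8e-11) than in Sub-ASCs. Its near-identical copy Il11ra2 had 15 to 18 reads in SUB, 0 to 2 in AB and 1 to 18 in PV libraries, and reads shared between the copies make both values uncertain. Il11ra2 has more than 1 entry among the counted genes, and only its first entry was used. Cntfr had 10.3, 8.80 and 9.72 CPM in SUB, 1.83, 2.40 and 2.18 CPM in AB, and 0.795, 0.949 and 1.56 CPM in PV libraries, 4.46-fold (3.38 to 5.89, edgeR adjusted p = 3.3e-07) and 8.70-fold lower (6.51 to 11.6, edgeR adjusted p = 1.43e-08) than in Sub-ASCs. The IL-31 receptor gene Il31ra had 31, 41 and 42 reads in SUB but at most 4 in any other library. In the whole list, 1 gene rose and 4 fell in Ab-ASCs against Sub-ASCs, and 1 rose, 3 fell and 1 did not pass in PVASCs, where 37% of all tested genes were higher and 38.3% lower in Ab-ASCs, and 34.7% and 35.7% in PVASCs. The gene that rose in both was Il27ra, the receptor of IL-27, with log2 fold changes of 0.46 (edgeR adjusted p = 0.00384) and 0.72 (edgeR adjusted p = 9.82e-05).

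Each of the 4 member ligands was then set beside its own receptor within the same library, on the FPKM scale. Lif had 0.462 to 0.571 times the FPKM of Lifr in SUB libraries (median 0.538), 55.5 to 73.5 times in AB (58.8) and 15.1 to 15.6 times in PV (15.6). Receptor mRNA exceeded ligand mRNA in all 3 SUB libraries, and ligand mRNA exceeded receptor mRNA in all 6 others. Il11 had 0.0170 to 0.0232 times the FPKM of Il11ra1 in SUB (0.0195), 3.73 to 4.72 times in AB (4.54) and 2.59 to 2.83 times in PV (2.76), the same turn from below to above 1. For Il6 and Il6ra the ligand was above the receptor throughout, at 3.94 to 4.02 in SUB (4.01), 17.0 to 22.4 in AB (18.0) and 9.14 to 10.1 in PV (9.89). Clcf1 was also above Cntfr throughout, at 1.54 to 1.85 in SUB (1.75), 40.6 to 59.4 in AB (47.0) and 35.4 to 69.3 in PV (57.8), where Cntfr had 26 to 54 reads per AB or PV library. No group overlapped another for the ratios of Lif, Il11 and Il6, with AB above PV above SUB, whereas for Clcf1 the AB and PV libraries overlapped and both lay above SUB. The ratios combine the gene differences tested above and were not tested on their own. Whether a ratio lies above or below 1 also depends on the listed gene lengths.

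**Figure D3:**
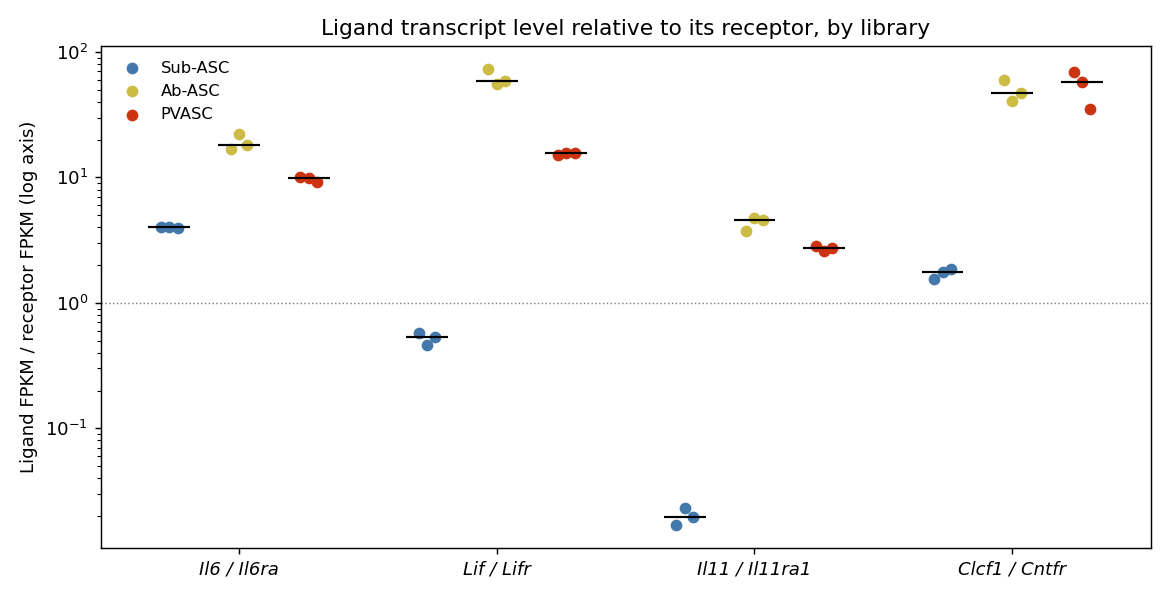
Ratio of ligand to receptor FPKM in each library, on a log axis, for Il6 over Il6ra, Lif over Lifr, Il11 over Il11ra1 and Clcf1 over Cntfr; points are libraries and bars are group medians. The Lif ratio has medians of 0.538 in SUB, 58.8 in AB and 15.6 in PV, and the Il6 and Clcf1 ratios are above 1 in every group.

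Stat3, on the minus strand of chromosome 11 (ENSMUSG00000004040, 100885098 to 100939540), carries the signal to the nucleus. It had 598, 609 and 606 CPM in SUB, 299.5, 284 and 286 CPM in AB, and 277, 275 and 269.8 CPM in PV libraries. Expression in Sub-ASCs was 2.09-fold that of Ab-ASCs (1.95 to 2.23, edgeR adjusted p = 3.51e-10) and 2.21-fold that of PVASCs (2.06 to 2.36, edgeR adjusted p = 1.79e-10). Between PVASCs and Ab-ASCs the log2 difference was -0.08 (95% interval -0.18 to 0.02, edgeR adjusted p = 0.14), although every PV library was below every AB library. Stat3 overlaps Stat5a by 72 bases on the opposite strand, and Stat5a, with 408 to 2359 reads, was itself highest in Sub-ASCs.

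In the list of 15 further signal transducers and regulators of this pathway, 12 were lower, 2 higher and 1 not past the threshold in Ab-ASCs against Sub-ASCs, and 11, 3 and 1 in PVASCs, where 38.3% and 35.7% of all tested genes were lower, with median log2 fold changes of -1.08 and -1.14 (-0.03 and -0.01 over all tested genes). Jak1, the kinase most tied to gp130, had means of 955 ± 46.8 CPM in SUB, 401 ± 20.5 in AB and 306 ± 7.9 in PV (SD, n = 3). It was 2.38-fold lower in Ab-ASCs (2.19 to 2.59, edgeR adjusted p = 5.33e-10) and 3.12-fold lower in PVASCs (2.87 to 3.40, edgeR adjusted p = 4.44e-11). Socs1 and Stat5a were among the genes that changed most. Socs1, an inhibitor of Janus kinases that interferons induce, had 73.5, 5.88 and 6.89 CPM (12.5-fold and 10.7-fold lower). In the interferon response list 10 of 10 genes were lower in both groups, and the part of that list in the member results was not tested. Stat5a had 88.7, 21.4 and 15.8 CPM (4.14-fold and 5.62-fold lower). The exceptions were Socs2, a regulator of growth hormone signals, with log2 fold changes of 2.18 in Ab-ASCs and 1.09 in PVASCs, the phosphatase gene Ptpn11 with 0.69 and 0.36, Adam10 with -0.49 and 0.39, and Pias3, which did not pass in either comparison (edgeR adjusted p = 0.17 and 0.385).

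Socs3, on the minus strand of chromosome 11 (ENSMUSG00000053113, 117966079 to 117970047), is the member that STAT3 activity itself is known to raise. The SUB libraries had 462, 426 and 477 CPM, the AB libraries 62.0, 57.4 and 57.3 CPM, and the PV libraries 69.3, 64.8 and 62.4 CPM. The lowest SUB library was above the highest of the others many times over. It was 7.73-fold lower in Ab-ASCs (6.99 to 8.55, edgeR adjusted p = 1.06e-12) and 6.95-fold lower in PVASCs (6.29 to 7.68, edgeR adjusted p = 1.6e-12) than in Sub-ASCs. PVASCs and Ab-ASCs differed in log2 by 0.15 (95% interval 0.01 to 0.29, edgeR adjusted p = 0.0577), a call that passed without AB replicate 1 (edgeR adjusted p = 0.0106). Per length, Socs3 had 157 FPKM in Sub-ASCs against 20.4 and 22.7 in Ab-ASCs and PVASCs, while Stat3 had 63.4, 30.4 and 28.8.

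Other genes known to respond to STAT3 did not all move with Socs3. Of 18 such genes, 9 were lower, 7 higher and 2 not past the threshold in Ab-ASCs against Sub-ASCs, and 11 were lower and 7 higher in PVASCs, with median log2 fold changes of -0.17 and -0.96. Over all tested genes, 38.3% were lower and 37% higher in Ab-ASCs, and 35.7% and 34.7% in PVASCs, so the share of targets that rose was near the background and the share that fell was above it in both groups, a difference that was not tested. Among the genes that fell, the acute-phase genes Saa3, Hp and Lcn2 had the largest differences in both comparisons. Saa3, encoding serum amyloid A3, had 11066, 8105 and 10996 CPM in SUB, 52.1, 48.7 and 45.2 CPM in AB, and 12.9, 12.7 and 12.9 CPM in PV libraries, 207-fold (169 to 252) and 783-fold (629 to 973) lower than in Sub-ASCs. Hp, encoding haptoglobin, had means of 875, 63.6 and 10.3 CPM (13.8-fold and 85.1-fold lower), and Lcn2, encoding lipocalin 2, had 85.5, 6.85 and 3.43 CPM (12.5-fold and 24.9-fold lower). The genes higher in both Ab-ASCs and PVASCs than in Sub-ASCs were Timp1, Ccnd1, Ier3, Bcl2l1, Fos, Myc and Klf4, which encode a protease inhibitor, a cell cycle protein, survival proteins and transcription factors. The largest of these were Timp1, with log2 fold changes of 3.97 in Ab-ASCs and 1.96 in PVASCs, and Ccnd1, with 2.56 and 4.03, both named after their values were seen. Proliferation genes were higher in the same groups, 6 of 6 in each, and their part in these values was not tested.

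**Figure D4:**
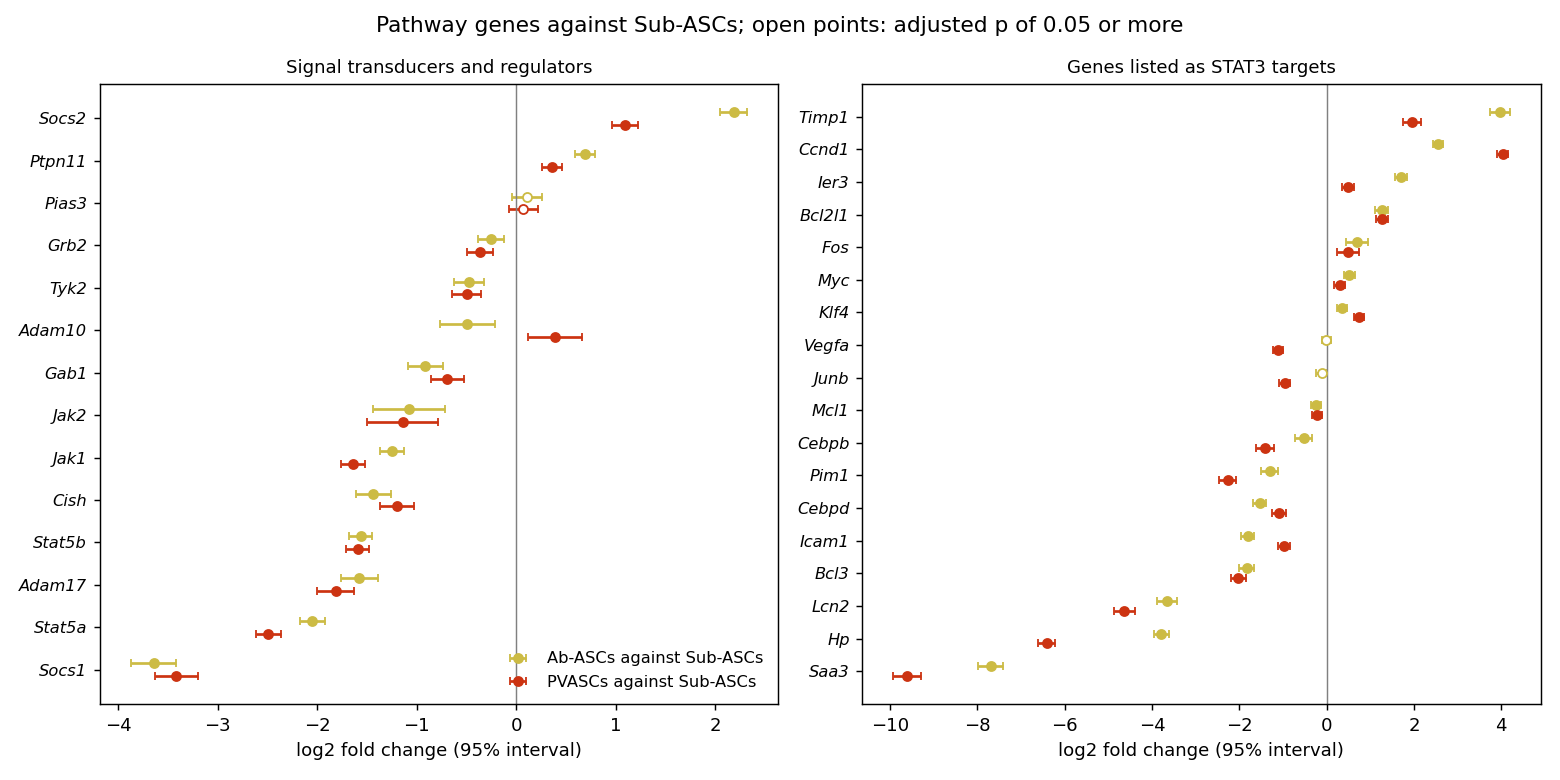
Log2 fold changes against Sub-ASCs of 14 of the 15 signal transducers and regulators and of the 18 STAT3 target genes, in Ab-ASCs and PVASCs, on a horizontal log2 axis; lines are 95% intervals and open points had an edgeR adjusted p of 0.05 or more. Most transducers lie below 0, whereas the targets spread to both sides, from Saa3 at -7.69 and -9.61 to Timp1 at 3.97 in Ab-ASCs and Ccnd1 at 4.03 in PVASCs.

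Between PVASCs and Ab-ASCs, the 4 ligands had the largest differences among the 10 members. All 4 member ligands were lower in PVASCs, with a median log2 fold change of -1.04. Lif (-2.40) and Il11 (-1.18) were the members past an absolute log2 fold change of 1. The receptor chains, Stat3 and Socs3 had log2 differences between -0.40 (Lifr) and 0.23 (Il6st and Il6ra). In the other ligands, Osm was lower in PVASCs by -1.93 ± 0.49 (SE, edgeR adjusted p = 0.00498), and Ctf1 was higher by 0.66 (edgeR adjusted p = 0.0283). Among the further receptors, Il11ra1 was lower by -0.53 (edgeR adjusted p = 0.000223) and Cntfr by -0.96 (edgeR adjusted p = 0.00442). Socs2 was lower by -1.09, more than Il6 and Clcf1. Of the transducers 4 were higher, 5 lower and 6 not past the threshold, and of the STAT3 target genes 4, 10 and 4, where 24.7% of all tested genes were higher and 32.1% lower. The shares of the transducers were near that background. Mesothelial markers were lower in PVASCs than in Ab-ASCs for 6 of 7 genes and endothelial markers higher for 5 of 5, and their part in the ligand differences was not tested.

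Genes with the pattern most like 3 of the members were looked up by Pearson's r of log2(CPM + 0.5) over the 9 libraries, as a description. The libraries form 3 groups, so r mainly reflects the group means. Nearest to Il6 were Smurf2 (0.996), Fermt2 (0.996) and Eaf1 (0.995), and 752 genes had an r over 0.95. Lif was most like Dlg4, Errfi1 and Mylk (each 0.999), with 1088 genes over 0.95. For Socs3 the nearest were Lss (1.00), Col6a2 (0.999) and Aldh1l1 (0.999), with 1926 genes over 0.95, so its pattern was common in these cultures.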

How the data were processed

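The authors deposited raw counts per gene for 9 libraries of mouse ASCs, made with an Illumina mRNA kit, together with gene lengths and positions. The submitters' processing notes name CASAVA 1.8, Bowtie 0.12.2, featureCounts 1.5.0-p3 and the builds mm8 and mm10, without roles. Of the listed genes, 53585 of 54532 have the start and end given in GENCODE M21 on GRCm38, and positions are on that build as listed (9 of 10 members match, all but Il11).

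Samples were grouped by their labels. Genes passing filterByExpr were normalized by TMM and tested in edgeR 4.0.16 (limma 3.58.1, R 4.3.3) with the quasi-likelihood F-test, all 9 libraries in 1 fit without covariates, and Benjamini-Hochberg adjustment over 16526 genes with a threshold of 0.05. SEs are the log2 fold change divided by the square root of F, and 95% intervals use the t distribution of the fit. CPM was calculated here with TMM library sizes, and FPKM as CPM per kilobase of listed gene length. Intervals and the limit of 3 reads cover these libraries and counting error only. The procedure was also run on simulated data in which few genes changed, and only in PVASCs. That run does not cover data such as these, in which most genes differ between groups.

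The members and gene lists were chosen with earlier results of these data known. Named outside the members were the 3 genes of each list with the largest change against Sub-ASCs, Il11ra1, Cntfr, Osm and Jak1, and for Il6, Lif and Socs3 the 3 genes with the highest r. Some genes that this rule covers are not reported here, though counts of lists include them. Ctf1, Il31ra, Il27ra and the exceptions in a list were named after their values were seen, as were the motifs chosen. Promoters are from RefSeq (GRCm38.p6), with 27025 searched for the shares, the first start of each gene. All libraries of a group differed by more than sampling noise, so none was merged. Results were recomputed without each library, with a replicate block, with a fit limited to the compared groups, with a required log2 fold change of 1 in size, without the low-count filter or with a minimum of 10 reads everywhere, with RLE size factors and with DESeq2 1.42.0.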

Additional observations from a re-analysis of the deposited data

How the results depend on the processing

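Across 15 alternatives that test each member, 439 of 450 recomputed member values kept their direction and side of the threshold, 7 came to pass it, 4 ceased to pass it and 0 turned. All 11 that crossed it concern PVASCs against Ab-ASCs. Besides the libraries named with the results, Il6ra was lost without the low-count filter (edgeR adjusted p = 0.0518), Osmr passed without the filter (0.0435) and without AB replicate 2 (0.0244), and Socs3 passed with DESeq2 (0.0432), RLE size factors (0.0313), 10 reads in every library (0.0168) and the fit of the groups compared (0.0113). Of the counts of genes, 198 of 205 stayed within 1.5 times. The other 7 fell when a log2 fold change of 1 in size was required. Under this further alternative, 9 members passed for Ab-ASCs and 8 for PVASCs against Sub-ASCs, instead of 10 each. For PVASCs against Sub-ASCs the transducers fell from 14 to 9 and the STAT3 target genes from 18 to 11. For PVASCs against Ab-ASCs the members fell from 7 to 2, the other ligands and receptors from 5 to 1, the transducers from 9 to 1 and the targets from 14 to 6. For Ab-ASCs against Sub-ASCs the transducers fell from 14 to 9.

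Deviations of same-numbered libraries from their group means had correlations of -0.112 to 0.195, and 4 of 9 libraries correlated best with their own number. The labels do not say whether the numbers pair the samples, and with 3 libraries per group these correlations cannot decide it. With the replicate block, 10, 7 and 10 members passed between PV and SUB, PV and AB, and AB and SUB, the same counts as without it. Depth limits Osm, Ctf1, Il31ra and Il11ra2, which rest on few reads. With 3 libraries per group of unstated origin, differences between animals cannot be told apart from those between cultures.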
